A study of Rattus norvegicus with 93 samples.

Results

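The libraries described here are the 32 rat brainstem libraries with the most and the least Th transcript, 16 at each end, and the question was which other transcripts a dissection of the rostromedial tegmental nucleus carries along with dopamine neurons. Th encodes tyrosine hydroxylase, the rate-limiting enzyme of catecholamine synthesis. A library entered the ranking when Nif3l1 took under 20% of its estimated counts and LOC120093067 plus Zfp532 together took under 10%, which 49 of the 92 libraries did. The groups were chosen by Th in counts per 1000000 of the library total (CPM), so the Th values below describe the choice and carry no test. Every other gene was tested for going with Th.

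The study sequenced polyadenylated RNA from this nucleus, the RMTg, in outbred rats for genetic studies of avoidance learning in addiction. There is 1 library per animal identifier and a single group. The labels mark 2 identifiers of the 92 libraries as corrected, 1 of them among the 32. The labels give no treatment, genotype, sex or age, so a difference between the high and low libraries in treatment, genotype or age cannot be seen. For sex, only the levels of Xist and Ddx3y are given below. The animal identifiers, which the labels do give, fall unequally between the groups, as described below. The groups come from measured Th and are not groups of the study.

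The RMTg is a small cluster of GABA neurons behind the ventral tegmental area, and its axons inhibit midbrain dopamine neurons. It adjoins the ventral tegmental area and lies near the interpeduncular nucleus and the raphe, so a tissue punch can include the rear edge of the dopamine cell field. Dopamine neurons make dopamine with tyrosine hydroxylase and Ddc, load it into vesicles with Slc18a2 and take it back up with Slc6a3, the dopamine transporter. Their identity in the midbrain is set and kept by transcription factors that include Lmx1a, Foxa1, Foxa2, Nr4a2, Pitx3 and, in ventral tegmental neurons, Otx2. Noradrenaline neurons also express Th, together with Dbh, which converts dopamine to noradrenaline.

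Th ranged from 285 to 1067 CPM with a median of 357 CPM in the 16 high libraries, and from 46.5 to 169 CPM with a median of 108 CPM in the 16 low ones. The medians differed 3.32-fold, and the highest library of all held 22.9 times the Th of the lowest. The 17 libraries between them ran from 169 to 278 CPM without a gap at either edge. The lowest of the high group had 284.7 CPM against 278.3 CPM in the next library below it, and the highest of the low group had 168.80 CPM against 168.83 CPM in the next above it. The order of Th is therefore a continuous range that was divided by rank.

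**Figure D1:**
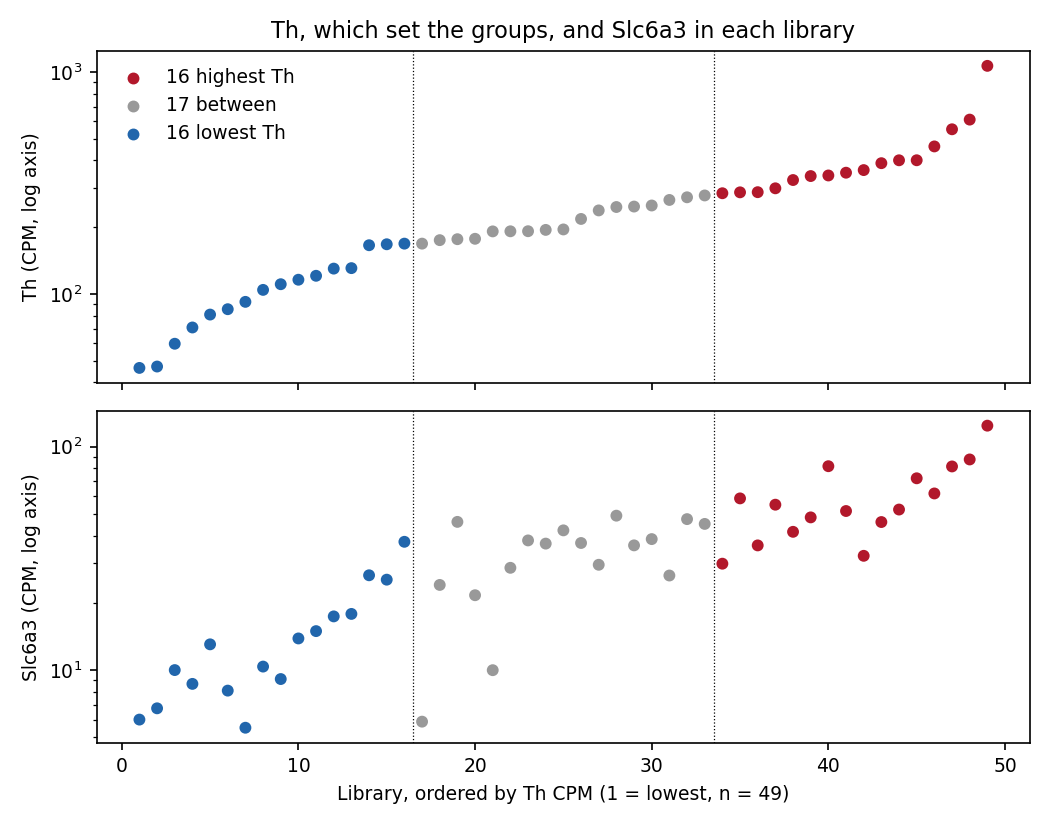
Th (upper panel) and Slc6a3 (lower panel) in CPM on log axes, in each of the 49 libraries ordered by Th. Points are single libraries, red for the 16 highest Th, grey for the 17 between and blue for the 16 lowest, and dotted lines mark the borders. Th ran from 46.5 to 1067 CPM, and Slc6a3, which did not enter the choice, ran from 5.52 to 124 CPM.

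The Th signal was checked against markers of the cells that could carry it. Slc6a3 was present in all 32 libraries. The noradrenaline markers were at or near 0: Dbh was at 0 in 13 of the 16 high and 14 of the 16 low libraries, with a highest level of 0.0890 and 0.346 CPM, and Slc6a2, Phox2a and Pnmt stayed at or under 0.493 CPM in every one of the 32. None of these 4 genes passed the filter on low values. The markers of the target nucleus were present in both groups, with Gata3 at 37.1 CPM or more and Sox14 at 30.7 CPM or more in each library.

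The totals of estimated counts ranged from 11.2 to 42.3 M (M, 1000000 counts; median 21.8 M) in the high group and from 10.4 to 41.6 M (median 13.9 M) in the low group. The animal identifiers fall into 6 number series, A to F, whose meaning is not stated, and the groups drew on them unequally: series B, C, D, E and F gave 3, 6, 2, 2 and 3 high libraries and 1, 5, 7, 1 and 2 low ones. Series D thus supplied 7 of the 16 low libraries. Each group held 12 libraries with high Xist and 4 with high Ddx3y. No 2 of the 49 libraries had identical values, and the closest of 1176 pairs differed by a chi-square of 7.87 per gene. The part of depth and series in the results was not tested beyond the fits with these terms given below.

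Genes were compared with limma on log2(CPM + 1), and a gene was called when its Benjamini-Hochberg adjusted p over the 18748 genes tested was under 0.05. With high Th, 139 genes were higher, which is 0.741% of those tested, and 38 were lower, which is 0.203%. The median difference over all genes was -0.002 on the log2 scale. All differences below are high minus low, in log2(CPM + 1), with the standard error (SE) of the fit. In bulk tissue, fewer cells of a type and less RNA per cell cannot be told apart. Of the 39 genes tested in 5 lists of dopamine neuron genes, 26 were higher and 0 lower, and their median difference was 0.73. Of the 162 genes tested in all other lists, 5 were higher and 4 lower, with a median of -0.003. The lists and their members were chosen with earlier results of these data known. That choice may in part fix these counts and those given per list below.

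**Figure D2:**
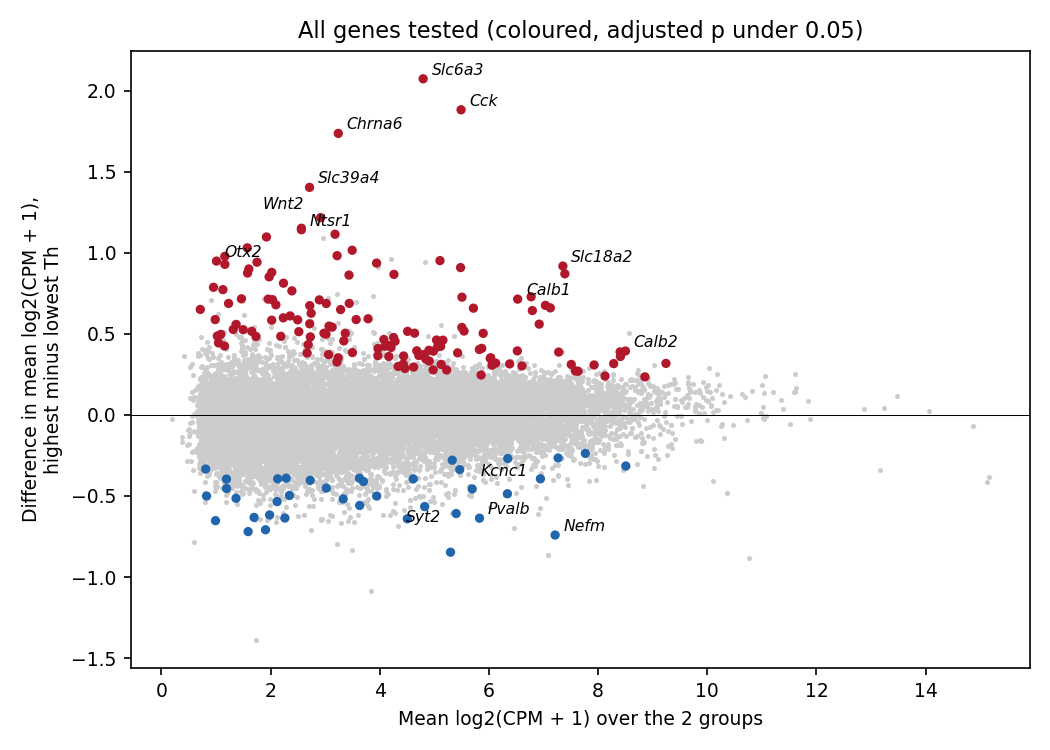
Difference between the 16 highest-Th and the 16 lowest-Th libraries (y axis, log2(CPM + 1)) against mean level (x axis, log2(CPM + 1)) for the 18748 genes tested. Grey points were not called, red points are the 139 higher and blue points the 38 lower genes. Slc6a3, Cck, Chrna6 and Slc39a4 lie above all other genes.

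All 6 genes tested for dopamine synthesis and transport were higher in the high-Th libraries. Slc6a3 ranged from 29.9 to 124 CPM (median 53.6 CPM) with high Th and from 5.52 to 37.5 CPM (median 11.7 CPM) with low Th. The groups overlapped, with 13 of the 16 high libraries above every low one. The difference was 2.07 ± 0.21 (SE; adjusted p = 1.2e-07), the largest among the genes called, and close in size to the 1.99 of Th itself, which is a description only. Slc18a2, the vesicular monoamine transporter, ranged from 166 to 444 CPM (median 213 CPM) against 76.1 to 186 CPM (median 116 CPM). Its groups overlapped only at the edge, where 14 of 16 high libraries exceeded every low one, and the difference was 0.92 ± 0.11 (adjusted p = 2.5e-06).

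Ddc, which decarboxylates L-DOPA to dopamine and also serves serotonin neurons, ranged from 86.3 to 315 CPM (median 128 CPM) against 59.4 to 137 CPM (median 80.7 CPM). These groups overlapped widely, with 7 high libraries above every low one, and the difference was 0.73 ± 0.13 (adjusted p = 0.00068). Gch1, which makes the first step of the cofactor that tyrosine hydroxylase needs, had medians of 14.2 and 7.62 CPM and a difference of 0.86 ± 0.13 (adjusted p = 1.0e-04). Slc10a4, a vesicle protein of monoamine and cholinergic neurons, had medians of 24.6 and 12.7 CPM, a difference of 0.87. Aldh1a1, an aldehyde dehydrogenase of a subset of dopamine neurons, differed least of the 6, with medians of 146 and 100 CPM and a difference of 0.56 ± 0.10 (adjusted p = 0.0014).

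Because these genes moved together with Th, the bases before their start sites were read for shared letters. RefSeq promoters of build GRCr8, which span 250 bases before to 50 after a start, were found for 101 of the 139 higher genes, taking the first listed start of each gene. The cAMP response element TGACGTCA, which reads the same on both strands, was in 6 of those 101 (Clptm1l, Ldha, Slc18a2, Neurod6, Clstn2 and Lamb3), or 5.94%, in 2.66% of the 15158 promoters of genes tested and in 1.91% of all 27457 promoters. It was also in the promoter of Th. The site AAAGGTCA, bound by NR4A factors such as Nr4a2, searched on both strands, was in 2 of the 101 (Gpx2 and Ddc), or 1.98%, against 1.02% for genes tested and 1.29% of all promoters. The 250 bases before the start are printed below for Th, the gene that ordered the libraries, and for the 3 dopamine list members that held either element, 5′ to 3′ on the gene's strand with the element in capitals; in Ddc the capitals are that site on the opposite strand. The 4 stretches are chr1:207508219-207508468 on the minus strand, chr1:268399771-268400020 on the plus strand, chr4:86180156-86180405 on the minus strand and chr14:90682784-90683033 on the minus strand.
Th: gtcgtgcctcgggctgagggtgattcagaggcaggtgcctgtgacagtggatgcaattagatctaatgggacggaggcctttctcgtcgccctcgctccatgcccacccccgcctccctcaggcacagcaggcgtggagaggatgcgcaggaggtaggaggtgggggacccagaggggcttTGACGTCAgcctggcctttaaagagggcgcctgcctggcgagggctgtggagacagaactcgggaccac
Slc18a2: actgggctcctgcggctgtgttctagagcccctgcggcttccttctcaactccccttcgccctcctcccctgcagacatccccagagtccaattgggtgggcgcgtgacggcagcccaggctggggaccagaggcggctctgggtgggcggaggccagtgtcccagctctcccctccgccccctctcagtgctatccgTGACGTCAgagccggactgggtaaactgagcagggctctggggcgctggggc
Neurod6: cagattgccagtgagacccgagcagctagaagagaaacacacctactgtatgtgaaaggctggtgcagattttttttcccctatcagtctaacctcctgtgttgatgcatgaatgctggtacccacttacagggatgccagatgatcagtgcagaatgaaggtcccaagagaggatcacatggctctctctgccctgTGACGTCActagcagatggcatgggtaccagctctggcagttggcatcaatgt
Ddc: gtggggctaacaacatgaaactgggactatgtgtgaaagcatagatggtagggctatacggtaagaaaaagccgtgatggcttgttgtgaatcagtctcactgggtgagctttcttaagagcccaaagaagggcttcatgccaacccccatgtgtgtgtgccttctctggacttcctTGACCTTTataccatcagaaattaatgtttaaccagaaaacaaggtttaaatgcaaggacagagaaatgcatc
A match is a description of letters and does not show binding. The promoter of Slc6a3, the gene of the largest difference, held neither element. The bicoid-type site TAATCC was in 3 of the 101 promoters (2.97%) against 5.997% for genes tested and 7.11% of all, and the forkhead site TGTTTAC was in 1 (0.990%) against 2.67% and 3.76%, both counted on either strand.

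Of 8 transcription factors of midbrain dopamine neurons, 5 were higher and 0 lower. Nr4a2, also called Nurr1, which activates the genes of dopamine synthesis, ranged from 8.10 to 41.9 CPM (median 14.5 CPM) against 4.58 to 12.8 CPM (median 6.79 CPM). The groups overlapped, and the difference was 1.02 ± 0.16 (adjusted p = 0.00018). Pitx3, a homeodomain factor that in the brain marks midbrain dopamine neurons, ranged from 1.09 to 3.63 CPM (median 2.08 CPM) against 0 to 2.18 CPM (median 0.666 CPM), a difference of 0.93 ± 0.13 (adjusted p = 2.3e-05). The forkhead factors of the ventral midline were both higher, Foxa1 by 1.10 ± 0.17 (adjusted p = 0.00017) and Foxa2 by 0.77 ± 0.13 (adjusted p = 0.00033). Lmx1a, which specifies dopamine progenitors, had medians of 1.71 and 0.561 CPM and a difference of 0.79 ± 0.14 (adjusted p = 0.00068).

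The remaining 3 factors were not called in this comparison. With 12 against 12 or 20 against 20 libraries, 6 of the 8 factors were called higher, and 7 were in a slope on Th over the 49 libraries. Lmx1b, which serotonin neurons also need, had medians of 2.21 and 1.34 CPM and a difference of 0.44 with a 95% interval from 0.17 to 0.72 (adjusted p = 0.093). En1, a homeodomain factor of the midbrain and hindbrain border, differed by 0.26 with an interval from 0.11 to 0.42 (adjusted p = 0.076). En2, its paralog, differed by 0.22 with an interval from 0.04 to 0.40 (adjusted p = 0.20). The 3 intervals lie above 0 but each gene missed the threshold over all genes.

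Of 10 receptors and channels of dopamine neurons, 9 were higher and 0 lower. Chrna6, a nicotinic acetylcholine receptor subunit of dopamine neurons, ranged from 7.35 to 51.4 CPM (median 16.2 CPM) against 1.98 to 11.8 CPM (median 3.97 CPM). In 13 of 16 high libraries it was above every low one, and the difference was 1.74 ± 0.19 (adjusted p = 3.9e-07). Chrnb3, which assembles with Chrna6 and lies beside it on chromosome 16 (positions 71400615 and 71454225 in the table), differed by 0.98 ± 0.16 (adjusted p = 0.00027). Chrna5, an accessory nicotinic subunit, had medians of 8.22 and 3.11 CPM and a difference of 1.15 ± 0.24 (adjusted p = 0.0069).

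Chrna5 belongs to a cluster on chromosome 8 with Chrna3 and Chrnb4 (positions 64265879, 64311251 and 64333319), a pair of subunits that the habenula and interpeduncular nucleus express together. Chrna3 ranged from 2.02 to 9.64 CPM (median 3.26 CPM) against 0.289 to 2.94 CPM (median 1.398 CPM), a difference of 0.94 ± 0.14 (adjusted p = 9.9e-05). For Chrnb4 the medians were 1.43 and 1.18 CPM, and the difference was 0.15 with a 95% interval from -0.06 to 0.37 (adjusted p = 0.45). The interval of Chrnb4 lies below that of Chrna3, which runs from 0.66 to 1.23, though the difference between the 2 genes was not tested. Chrna4, the widely expressed subunit, had the smallest called difference of the receptor list, 0.33 ± 0.08 (adjusted p = 0.041), and lost its call without the library of highest Th.

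The peptide receptors of the list were both higher. Ntsr1, the high-affinity neurotensin receptor, ranged from 4.21 to 19.1 CPM (median 7.47 CPM) against 1.75 to 5.13 CPM (median 2.87 CPM). Only 1 high library fell within the low range, and the difference was 1.14 ± 0.14 (adjusted p = 1.5e-06). Tacr3, the neurokinin B receptor, had medians of 13.4 and 5.598 CPM and a difference of 1.11 ± 0.16 (adjusted p = 2.8e-05). Drd2, the autoreceptor through which dopamine neurons sense their own release, ranged from 8.55 to 44.2 CPM (median 19.5 CPM) against 4.06 to 15.9 CPM (median 11.2 CPM), a difference of 0.94 ± 0.16 (adjusted p = 0.00033).

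Ret and Gfra1 form a receptor for GDNF, a survival factor of dopamine neurons. Ret ranged from 37.4 to 113 CPM (median 56.8 CPM) against 22.5 to 44.9 CPM (median 30.6 CPM), with 15 of 16 high libraries above every low one and a difference of 0.91 ± 0.12 (adjusted p = 1.2e-05). Gfra1 differed less, by 0.42 ± 0.09 (adjusted p = 0.012). The potassium channel gene Kcnj6 (Girk2) was not called: its medians were 35.2 and 34.2 CPM, and its difference of 0.07 had a 95% interval from -0.07 to 0.22.

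**Figure D3:**
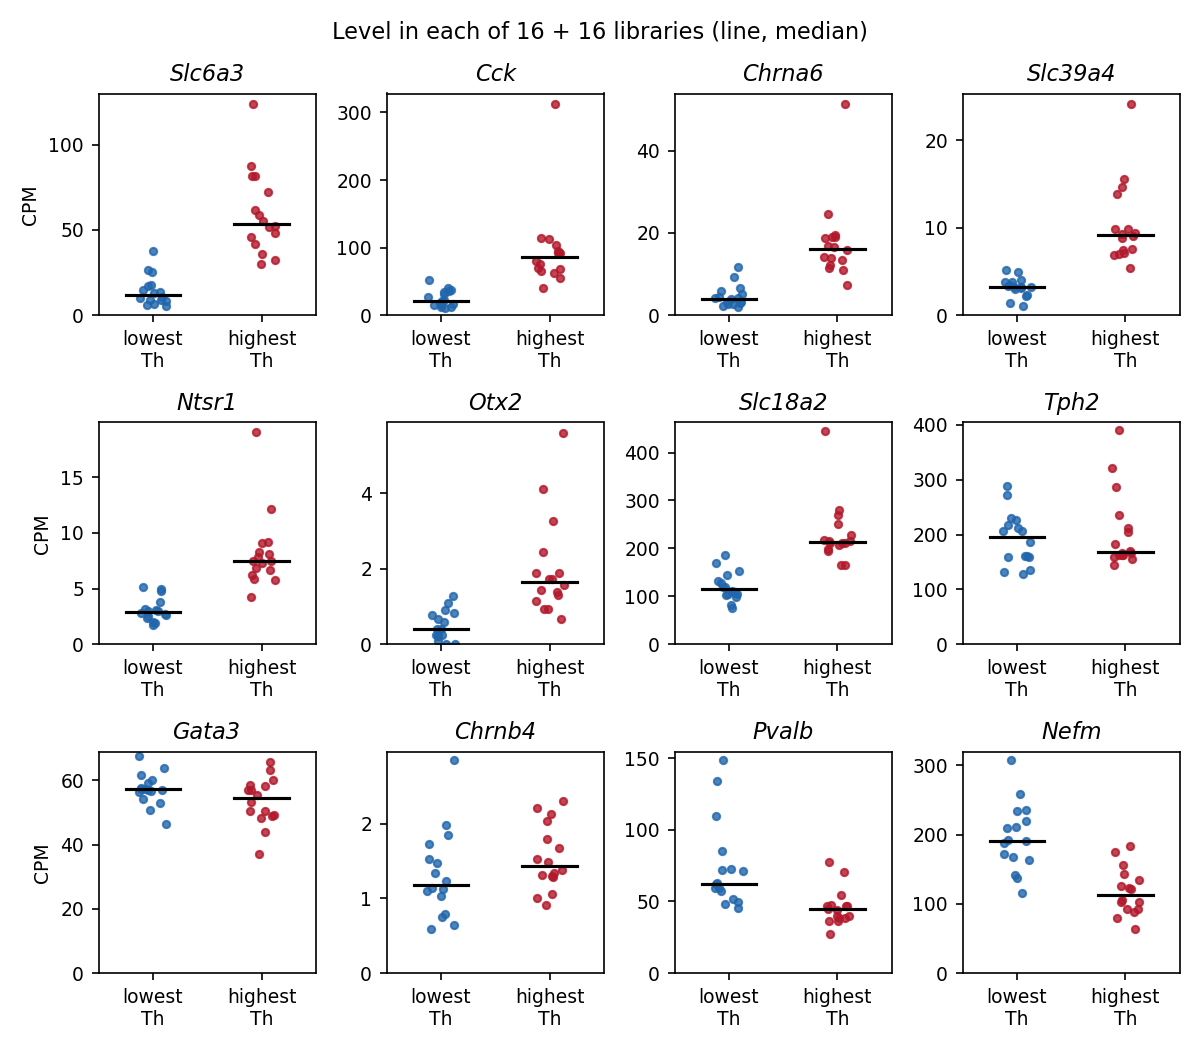
CPM (y axes, each from 0) of 12 genes in the 16 lowest-Th (blue) and 16 highest-Th (red) libraries; each point is 1 library and each line a median. Slc39a4 is separated between the groups, Tph2 and Gata3 lie at similar levels in both, and Nefm and Pvalb are lower with high Th. One high library stands above the rest in Cck, Chrna6, Slc18a2 and several other panels.

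Dopamine neurons differ by position, and markers of both main fields were compared. Of 9 genes tested for the ventral tegmental subset, 4 were higher and 0 lower, and all 9 had differences above 0. Cck, a peptide of ventral tegmental dopamine neurons, ranged from 40.7 to 313 CPM (median 85.4 CPM) against 10.9 to 52.05 CPM (median 21.3 CPM). In 15 of 16 high libraries it exceeded every low one, and the difference was 1.88 ± 0.21 (adjusted p = 4.4e-07). Otx2, a homeodomain factor of ventral tegmental neurons, ranged from 0.673 to 5.59 CPM (median 1.65 CPM) against 0 to 1.28 CPM (median 0.401 CPM), a difference of 0.95 ± 0.15 (adjusted p = 0.00025). Calb1, a calcium-binding protein, differed by 0.71 ± 0.13 (adjusted p = 0.0019), and Neurod6, a factor of a small medial population, by 0.63 ± 0.16 (adjusted p = 0.044).

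The other 5 ventral tegmental genes missed the threshold. Nts, the peptide neurotensin, had medians of 9.997 and 4.48 CPM and a difference of 1.09 with a 95% interval from 0.51 to 1.67 (adjusted p = 0.051). Grp, gastrin-releasing peptide, differed by 0.54 with an interval from 0.23 to 0.85 (adjusted p = 0.076). Lpl, Adcyap1 and Vip had differences of 0.48, 0.32 and 0.03. The call of Neurod6 rested in part on 1 library, since without the library of highest Th it was lost.

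Of 6 genes tested for the substantia nigra compacta subset, 2 were higher and 0 lower, and Aldh1a7 had no row. Dlk1, a Notch-like membrane protein, ranged from 36.2 to 89.5 CPM (median 57.9 CPM) against 17.5 to 63.3 CPM (median 34.6 CPM), with wide overlap and a difference of 0.73 ± 0.14 (adjusted p = 0.0035). Ndnf, a secreted neurotrophic factor, differed by 0.71 ± 0.16 (adjusted p = 0.016). Sox6, the factor that marks nigral dopamine neurons and also other neurons and glia, had medians of 19.8 and 19.5 CPM and a difference of -0.07 with an interval from -0.26 to 0.12. Anxa1, Kcns3 and Satb1 had differences of 0.47, 0.20 and 0.06, none past the threshold. The median difference was 0.33 for the nigral list and 0.63 for the ventral tegmental list, and the lists were not tested against each other.

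Beyond the dopamine lists, the genes of largest difference included several that are not usual dopamine markers. Slc39a4, a zinc importer of the plasma membrane, ranged from 5.41 to 24.2 CPM (median 9.15 CPM) against 1.06 to 5.12 CPM (median 3.23 CPM). It was the 1 gene of 18748 (0.00533%) whose high group lay wholly above its low group, and 0 genes (0%) did the reverse. The difference was 1.404 ± 0.16 (adjusted p = 3.9e-07). Wnt2, a secreted Wnt ligand, ranged from 6.61 to 34.8 CPM (median 9.57 CPM) against 1.12 to 6.76 CPM (median 3.95 CPM), a difference of 1.22 ± 0.16 (adjusted p = 1.2e-05). Its groups touched in a single high library.

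Ntf3, the neurotrophin NT-3, had medians of 1.97 and 0.575 CPM and a difference of 0.98 ± 0.15 (adjusted p = 0.00017). Nrgn, the postsynaptic calmodulin-binding protein neurogranin, ranged from 32.1 to 86.7 CPM (median 45.97 CPM) against 12.9 to 38.4 CPM (median 22.6 CPM), a difference of 0.95 ± 0.13 (adjusted p = 2.3e-05). Pdyn, the precursor of dynorphin, had medians of 3.47 and 1.19 CPM and a difference of 0.90 ± 0.14 (adjusted p = 0.00017), while the 3 other opioid peptide precursors, Penk, Pnoc and Pomc, had differences of 0.09, 0.18 and 0.04 and were not called. Mc3r, a melanocortin receptor, differed by 0.88 ± 0.16 (adjusted p = 0.0015). The membrane protein genes Tmem207 and Tmem255a differed by 1.03 and 0.87, and Fam167a by 0.88; each was called. Lower levels are compressed by the pseudocount of 1 CPM, so the differences of genes near 1 CPM understate their change.

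No gene of the RMTg list was called in this comparison. Of the 10 tested, 0 passed in either direction, against 0.741% and 0.203% of all genes, and their median difference was -0.03. A slope on Th over the 49 libraries called 1 of the 10 lower, beside 541 of all 18748 genes. In the libraries dominated by LOC120093067 and Zfp532, described below, 4 of the 10 were called higher. Of the 18013 genes tested in both sets of libraries, 35.5% were called higher there. The median of the 10 there was 0.40, beside 0.31 for those 18013 genes and 0.24 for all genes tested there. Gata3, a factor of these GABA neurons, had medians of 54.5 and 57.2 CPM and a difference of -0.10 with a 95% interval from -0.23 to 0.03. Tal1, which acts with Gata2 and Gata3, differed by 0.00 with an interval from -0.12 to 0.12, and Sox14 by -0.02 with an interval from -0.16 to 0.13. Foxp1, used to outline the nucleus, differed by -0.12 (interval -0.25 to 0.01), Pnoc by 0.18 (interval -0.02 to 0.39) and the opioid receptor Oprm1 by 0.13 (interval -0.15 to 0.41). Among the GABA genes, Gad1 differed by 0.02, Gad2 by -0.09 and the vesicular transporter Slc32a1 by -0.30, with an interval from -0.54 to -0.05 and an adjusted p of 0.20. The summed level of the 10 genes ran from 714 to 1100 CPM in the high and from 726 to 1052 CPM in the low libraries.

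Markers of neighbouring cell groups were mostly uncalled. Of 5 serotonin genes of the raphe, 0 were called: Tph2, which makes serotonin's precursor, had medians of 169 and 196 CPM and a difference of 0.07 (interval -0.19 to 0.33), and Slc6a4, the serotonin transporter, differed by 0.02 (interval -0.25 to 0.29). Of 5 interpeduncular genes tested, Chrna3 was higher, and Chrnb4, Pax7, Irx1 and Irx2 had differences of 0.15, 0.10, -0.14 and 0.17. Of 2 genes tested for oculomotor and other cholinergic neurons, Prph, the intermediate filament peripherin, was higher by 0.50 ± 0.12 (adjusted p = 0.024), and Slc5a7, the choline transporter, had a difference of -0.33. The defining genes Chat, Slc18a3 and Isl1 were at or under 1.32 CPM in all 32 libraries and were not tested. Of 2 red nucleus genes tested, 0 were called, with differences of -1.09 for Spp1 and 0.02 for Nkx6-1. Of 3 glycinergic, 3 vesicular glutamate transporter and 3 mammillary and subthalamic genes, 0 were called, with medians of -0.19, 0.15 and -0.20. A slope on Th over the 49 libraries called 1 red nucleus and 1 glycinergic gene lower, beside 541 of all 18748 genes. Of 11 genes tested for the hypothalamus, thalamus, cortex, hippocampus and cerebellum, 0 were called in either direction. With 0.741% of all genes higher and 0.203% lower, 0 calls among 5 or 11 genes do not set the raphe or these regions apart. With 12 against 12 or 20 against 20 libraries, 1 thalamus gene and 1 cortex and hippocampus gene were called lower. Those fits called 180 and 376 of all 18748 genes lower. The slope over the 49 libraries also called 1 cortex and hippocampus gene lower.

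**Figure D4:**
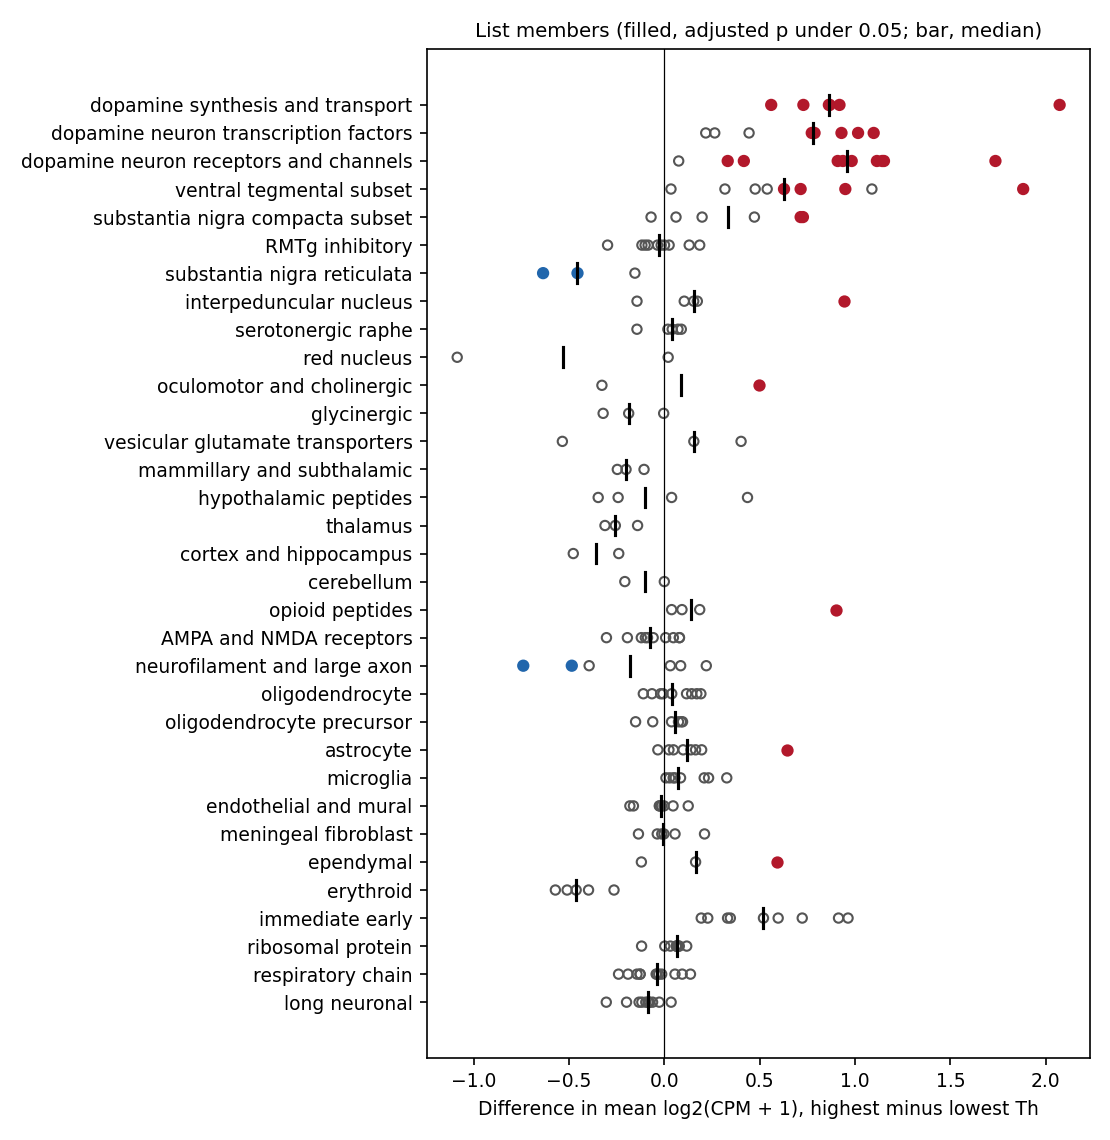
Difference between high and low Th (x axis, log2(CPM + 1)) of each tested member of each gene list with at least 2 such members (y axis). Filled points were called, red higher and blue lower, open points were not, and bars are list medians. The 5 dopamine neuron lists at the top hold 26 of the filled red points, while the RMTg list is centred near 0 and the substantia nigra reticulata list has a median of -0.46.

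The genes lower with high Th included neurofilament genes, whose products fill thick axons. Nefm, the medium neurofilament subunit, ranged from 64.3 to 183 CPM (median 113 CPM) with high Th and from 115 to 308 CPM (median 191 CPM) with low Th. The groups overlapped, and the difference was -0.74 ± 0.13 (adjusted p = 0.00056). Nefh, the heavy subunit, differed by -0.49 ± 0.12 (adjusted p = 0.029), whereas Nefl, the light subunit, had medians of 150 and 135 CPM and was not called (0.08, interval -0.08 to 0.25). Of 6 neurofilament and large-axon genes, 2 were lower and 0 higher, with a median of -0.18.

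Of 3 genes tested for the substantia nigra reticulata, a GABA nucleus beside the dopamine cells, 2 were lower. Pvalb, a calcium buffer of fast-firing neurons, ranged from 27.04 to 77.5 CPM (median 44.5 CPM) against 45.2 to 149 CPM (median 62.4 CPM), a difference of -0.64 ± 0.14 (adjusted p = 0.016). Kcnc1, a potassium channel that permits fast firing, ranged from 27.99 to 64.5 CPM (median 41.9 CPM) against 45.2 to 74.4 CPM (median 61.3 CPM), a difference of -0.46 ± 0.09 (adjusted p = 0.0053). Neither gene is restricted to that nucleus. Lhx1, the third gene, had a difference of -0.16 and was not called, and Six3 was at or under 0.487 CPM in each library and was not tested.

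The rule for named genes gave 9 further lower genes. Syt2, the calcium sensor of fast release, ranged from 16.9 to 48.7 CPM (median 35.4 CPM) against 35.7 to 74.8 CPM (median 48.96 CPM), a difference of -0.61 ± 0.11 (adjusted p = 0.0017). The sodium channel gene Scn8a differed by -0.34, the potassium channel gene Kcna2 by -0.27 and Ank3, which anchors channels at the axon initial segment, by -0.24. The nuclear factors Esrrg and Dach1 each differed by -0.39. Mustn1 and Hmgb2l1 differed by -0.64 each and Spag9 by -0.31. Without the library of highest Th 22 genes were lower, and Nefh, Mustn1, Scn8a and Ank3 were no longer called. Without series D 3 genes were lower. With series as a covariate, Nefh, Pvalb and, of these 9, all but Syt2 were not called. Of the 38 lower genes, 18 carried provisional LOC symbols, against 0 of the 139 higher genes and 21.7% of all genes tested.

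Glial and vascular markers were mostly uncalled. Of 9 oligodendrocyte genes, 6 precursor genes, 8 microglial genes, 8 endothelial and mural genes and 6 meningeal genes, 0 were called. Of all genes tested, 0.741% were higher and 0.203% lower, so 0 calls in lists of this size do not set these cell types apart. Of 8 astrocyte genes, Gfap, the intermediate filament of astrocytes, was higher, from 73.9 to 221 CPM (median 135 CPM) against 48.9 to 159 CPM (median 89.9 CPM), a difference of 0.64 ± 0.15 (adjusted p = 0.023). The other 7 astrocyte genes, Aqp4 and Slc1a2 among them, had differences from -0.03 to 0.20. Of 3 ependymal genes tested, Dnah12, a dynein of motile cilia, was higher by 0.59 ± 0.14 (adjusted p = 0.024), while Foxj1 and Rarres2 had differences of 0.16 and -0.12. The summed oligodendrocyte level ran from 39797 to 78305 CPM with high Th and from 42030 to 61722 CPM with low Th.

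The 17 libraries between the groups took no part in the comparison and were used to ask whether the same genes went with Th there. Their Th range was narrow, and 0 genes (0%) had a called positive slope and 0 (0%) a called negative slope on log2(Th CPM + 1) with limma, while 1217 had an unadjusted p under 0.05. Of the 139 higher genes, 118 (84.9%) had a positive slope in these libraries, 17 of them with an unadjusted p under 0.05, and of the 38 lower genes, 32 (84.2%) had a negative slope. Over all genes tested, 52.3% of slopes were positive. Of the 39 dopamine list genes, 31 (79.5%) had a positive slope, as did 37 of 49 glial and vascular genes (75.5%), 9 of 9 immediate early genes and 6 of 6 oligodendrocyte precursor genes. Slc6a3 had a slope of 1.58, Chrna6 of 1.71, Cck of 1.13, Ntsr1 and Otx2 of 1.06 each and Slc39a4 of 0.74. Tacr3 (-0.11), Ntf3 (-0.21) and Ndnf (-0.10) had slopes on the other side of 0.

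**Figure D5:**
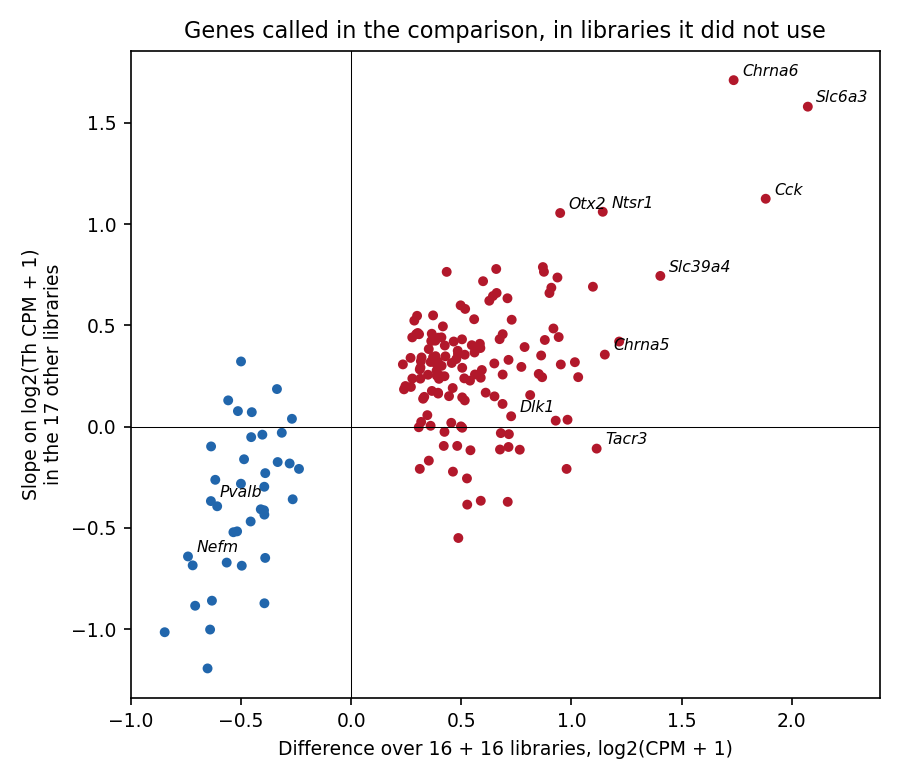
Slope on log2(Th CPM + 1) over the 17 libraries between the groups (y axis) against the difference over the 32 libraries (x axis), both in log2(CPM + 1), for the 139 higher (red) and 38 lower (blue) genes. Of the red points, 118 lie above 0, and of the blue points, 32 lie below 0. Slc6a3, Chrna6 and Cck are at the upper right.

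The high libraries were not alike among themselves. The library of highest Th, with 1067 CPM, belonged to series B, held 14.3 M counts and was the highest of the 32 for all 26 called dopamine list genes. It reached 124 CPM for Slc6a3, 313 CPM for Cck, 51.4 CPM for Chrna6 and 444 CPM for Slc18a2. Without it, 104 genes were higher and 22 lower, and 24 dopamine list genes were called, with a median difference over the lists of 0.68. Within series, the difference of Slc6a3 was 0.87 in B, 1.81 in C, 2.32 in D, 3.10 in E and 2.004 in F, and that of Cck was 2.02, 1.84, 1.43, 2.08 and 1.83. Series B and E each rest on 1 low library. Of the 139 higher genes, 120 had 1 sign in all 5 series, and of the 38 lower genes, 22 did, against 10.7% of all genes tested. These within-series values come from the same 32 libraries that called the genes, so the choice in part fixes that agreement.

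With series as a covariate, 76 genes were higher and 15 lower, and 23 dopamine list genes were called. Of the 39 named higher genes, 7 were not called in that fit, namely Chrna4, Gfra1, Ndnf, Neurod6, Gfap, Dnah12 and Prph. Of the 13 named lower genes, 10 were not, and Nefm, Syt2 and Kcnc1 were. With log10 of the library total as a covariate, 99 were higher and 10 lower, and 26 dopamine list genes were called. Without series D, which holds 7 low libraries, 43 were higher and 3 lower, and 17 dopamine list genes were called, with a median of 0.77. The 9 that lost their calls there were Aldh1a1, Calb1, Chrna4, Chrna5, Ddc, Dlk1, Lmx1a, Ndnf and Neurod6. Of the other named genes, Mc3r, Gfap, Dnah12, Prph and all 13 lower ones also lost theirs without that series. That fit leaves out 9 of the 32 libraries, and the differences of the main lower genes were -0.72 for Nefm, -0.52 for Pvalb, -0.64 for Syt2 and -0.45 for Kcnc1. Slc6a3, Cck, Chrna6, Slc39a4, Ntsr1, Otx2, Slc18a2, Ret, Nr4a2 and Pitx3 were called in each of these fits.

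The 32 libraries left out because LOC120093067 and Zfp532 dominate them were also ranked by Th and split into an upper and a lower 16. Their CPM used a total without LOC120093067, Zfp532, Nif3l1 and ribosomal RNA, so it is not on the scale of the main groups. On that scale, Th ran from 47.1 to 607 CPM in the upper 16 and from 3.53 to 40.4 CPM in the lower 16. There the whole distribution was shifted, with a median difference of 0.24 over all genes, 6475 genes higher and 938 lower of 20268 tested. Of the 134 higher genes that could be tested there, 122 (91.04%) had a difference above 0 and 85 (63.4%) were called higher, against 70.3% and 35.5% of all 18013 genes tested in both sets of libraries. Slc6a3 differed by 1.33 (adjusted p = 0.0042) and Cck by 2.25 (adjusted p = 0.00063). Of 39 dopamine list genes tested there, 28 were called higher and 0 lower, and of 168 genes in the other lists, 73 and 4. Those 73 included 10 of 10 ribosomal protein, 11 of 12 respiratory chain and 6 of 8 microglial genes. Libraries with less Th there mostly had lower totals and a larger share of LOC120093067 and Zfp532. The part of total and share in these calls was not tested. Of the 38 lower genes, 17 had a difference below 0 and 3 were called, and Nefm (0.18), Pvalb (0.04), Syt2 (0.52) and Kcnc1 (0.60) had differences above 0.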

How the data were processed

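Polyadenylated RNA of the RMTg was measured in 92 libraries; 1 further library, which the labels mark as removed, was not used here. The deposited values for 38354 genes were read as log2 of estimated counts plus 1, from the values and the processing notes. No header or protocol states the unit. Totals differ between libraries, so the values were not scaled to 1 common total. Whether they were adjusted for length was not tested. Kallisto 0.48 is named per the submitters' processing notes; the build and how transcripts were summed are not given in the sources used here. Table positions equal a gene end in RefSeq GRCr8 for all 38278 matched symbols.

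Values were back-transformed, divided by the library total to CPM and taken as log2(CPM + 1). Genes at 1 or more on that scale in at least 20% of the 49 libraries were kept. The 16 highest and 16 lowest Th libraries were compared with limma 3.58.1 (mean trend, two-sided) in R 4.3.3, with Benjamini-Hochberg adjustment over all genes tested; a slope on Th was fitted over the 17 libraries between. Totals give the depth, and no count model was used because the deposited unit is log2. Nothing but separate identifiers says that libraries are separate animals. A gap of over 50000 between identifiers starts a new series. The procedure was tested on simulated data. The 36 gene lists and the members were chosen with earlier results of these data known. The text names list members, the 25 genes of largest positive and 15 of most negative difference (13 qualified) among those called with 1 sign in every series, and genes whose groups do not overlap, passing over provisional symbols; the other genes named for a promoter match are the complete matches, chosen after their values were seen. Alternatives covered scaling, pseudocount, filter, covariates, group size, library sets and variance model. Results for 2 genes are not reported here.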

Additional observations from a re-analysis of the deposited data

How the results depend on the processing

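Slc6a3 stayed higher and past the threshold under all 24 alternatives; outside the dominated libraries its group difference ran from 1.85 to 2.53 over 22 of them, and its slope on log2(Th CPM + 1) over 49 libraries was 1.04. Genes with high Th numbered 139 higher and 38 lower. Without the library of corrected identifier, 120 were higher and 36 lower. The higher and lower counts were 76 and 15 with series as covariate, 328 and 180 for 12 against 12 libraries, 295 and 376 for 20 against 20, 517 and 541 for a slope over 49 libraries, 81 and 12 without the 2 libraries of highest Th, 43 and 3 without series D, 79 and 14 without series F, and 6475 and 938 in the libraries dominated by LOC120093067 and Zfp532. The lower count alone moved by over 1.5 times to 71 with median-of-ratios scaling, 19 with no filter, 75 with Xist or Ddx3y level as covariate, 10 with log10 total as covariate, 65 without series B, 25 without series C and 19 without series E. Chosen after seeing the data, series with log10 total gave 74 and 9, leaving out the library of highest Th gave 104 and 22, and an oligodendrocyte score gave 142 and 37. Genes whose groups did not overlap numbered 2 with median-of-ratios scaling, 12 for 12 against 12 and 0 for 20 against 20. Slopes over the 17 libraries between gave 0 calls in all 4 fits, with 1158 to 1352 genes at an unadjusted p under 0.05. Of 52 named genes called, the dominated libraries turned 11 that were lower to positive differences: Nefm 0.18, Mustn1 0.67, Pvalb 0.043, Hmgb2l1 0.94, Syt2 0.52, Nefh 0.83, Kcnc1 0.60, Scn8a 0.084, Spag9 0.21, Kcna2 0.22 and Ank3 0.26, beside a shift of 0.24 in the median of all genes; the cause was not tested. No other alternative turned any of the 52, and leaving out series D took 26 of them below the threshold. No paired analysis was possible because the labels give 1 group. The number of libraries and the narrow Th range of the 17 between limit what can be detected.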

Other observations

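Other called genes were looked up after their values were seen. Calb2, the calcium-binding protein calretinin, was higher with high Th by 0.39 ± 0.09 (SE; adjusted p = 0.023, limma with Benjamini-Hochberg adjustment). Ghsr, the ghrelin receptor, was higher by 0.69 ± 0.14 (adjusted p = 0.0052), Crh, corticotropin-releasing hormone, by 0.67 ± 0.14 (adjusted p = 0.0077) and Bdnf, brain-derived neurotrophic factor, by 0.55 ± 0.13 (adjusted p = 0.029). Calb2 was higher within 5 of the 5 series, and Ghsr, Crh and Bdnf each within 4. In the dominated libraries, where 35.5% of genes tested in both sets were called higher, Calb2, Ghsr and Crh were called (1.10, 0.51 and 0.80). Bdnf was not (-0.13).

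The immediate early genes, which follow recent neuronal activity, spread widely within both groups. Fos ran from 5.07 to 227 CPM (median 10.8 CPM) with high Th and from 3.31 to 191 CPM (median 8.94 CPM) with low Th. All 9 tested had differences above 0, with a median of 0.52, and 0 were called. That median was 0.15 with series as a covariate, 0.29 with log10 of the total, 0.069 with both, 0.22 without series D, 0.27 without series F and 0.99 without series C. The 5 erythroid genes tested had differences below 0, with a median of -0.46, and 0 were called; Hbb ran from 5.06 to 521 CPM and from 48.9 to 876 CPM. Spp1, of the red nucleus list, is an osteopontin gene of large neurons and other cells. It had the most negative difference of any listed gene, -1.09 with a 95% interval from -1.78 to -0.40 (adjusted p = 0.10), and was not called.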
